A study of Mus musculus with 9 samples.

Results

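Macrophage transcripts were followed in cultures of mouse testicular peritubular myoid cells through 10 genes of the deposited table, of 20717 listed: Lyz2, C1qa, C1qb, C1qc, Csf1r, Cd68, Cd14, Mrc1, Adgre1 and Ptprc. The members were taken by gene symbol, as a measure of the macrophage RNA that each library carried. Peritubular myoid cells are the contractile cells around the seminiferous tubules. The labels describe them as primary cells of C57BL/6J mice, kept in DMEM/F12 with 10% fetal bovine serum at 37 °C under 5% CO2. The 9 RNA-seq libraries form 3 groups of 3. Control cells had no heat treatment. In the other groups the dishes stood in a 42 °C water bath for 30 min, went back to the incubator and were harvested 1 h or 6 h afterwards. The labels give neither the age of the mice nor the source of the replicates (animals, cultures or repeats of 1 extract). The p-values therefore refer to the scatter among libraries, part or all of which could be technical.

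Macrophages are the main immune cells of the testis, where they live in the interstitium beside the Leydig cells and on the wall of the tubules, next to the peritubular myoid cells. They take up debris and dead cells by phagocytosis, digest them in lysosomes, and depend on signals through the CSF1 receptor for survival. Lysozyme, the C1q chains and CD68 belong to clearance and digestion. CSF1R and CD14 receive signals, and CD206, F4/80 and CD45 (from Mrc1, Adgre1 and Ptprc) are the surface proteins by which the cells are commonly stained.

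The labelled cell type showed its contractile markers in all 9 libraries: Acta2 ranged from 992 to 1627 FPKM, Cnn1 from 18.4 to 119 FPKM, Des from 11.0 to 63.7 FPKM and Myh11 from 8.41 to 48.8 FPKM. Some Leydig cell transcripts were abundant as well. The 9 genes listed for them summed to 966 to 2184 FPKM in control, 905 to 2071 FPKM at 1 h and 1448 to 2090 FPKM at 6 h. Of these 9, 4 stayed below 1 FPKM in every library. The cell makeup of the cultures was not tested. FPKM correct fragment counts for the length of the transcript and the size of the library, so levels can be set side by side between genes. The depth was an estimated 18900000 to 20000000 reads per library. A heat response was clear at 1 h and partial at 6 h. Of 8 inducible chaperone genes tested, 8 were higher in every 1 h library than in every control, beside 4.49% of all genes. At 6 h 3 of the 8 were, beside 1.89% of all genes. Hspa1a, an inducible HSP70, averaged 9.81 ± 2.71 FPKM in control, 1511 ± 283 FPKM at 1 h and 38.9 ± 11.2 FPKM at 6 h (SD, n = 3). A few libraries stood apart. Control replicate 3 carried 2700 FPKM of the Sertoli cell product Clu, against at most 437 FPKM in the other 8. Replicate 2 at 6 h held 202 FPKM of Hspb1, beside 2484 and 804 FPKM in replicates 1 and 3 at 6 h. That is within the control range of 123 to 343 FPKM. The member results are therefore also given without these 2 libraries.

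Lyz2, which codes for lysozyme of the macrophage type, was the most abundant member. It stood at 31.4, 19.2 and 60.02 FPKM in control replicates 1 to 3, at 20.3, 132 and 175 FPKM in 1 h replicates 1 to 3, and at 178, 156 and 24.3 FPKM in 6 h replicates 1 to 3. The 9 libraries fell into 2 sets with a gap between them. Replicates 2 and 3 at 1 h and replicates 1 and 2 at 6 h held 132 to 178 FPKM, and the other 5, with 1 library of each heat group among them, held 19.2 to 60.02 FPKM. In bulk RNA, fewer macrophages and less RNA per macrophage cannot be told apart.

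**Figure D1:**
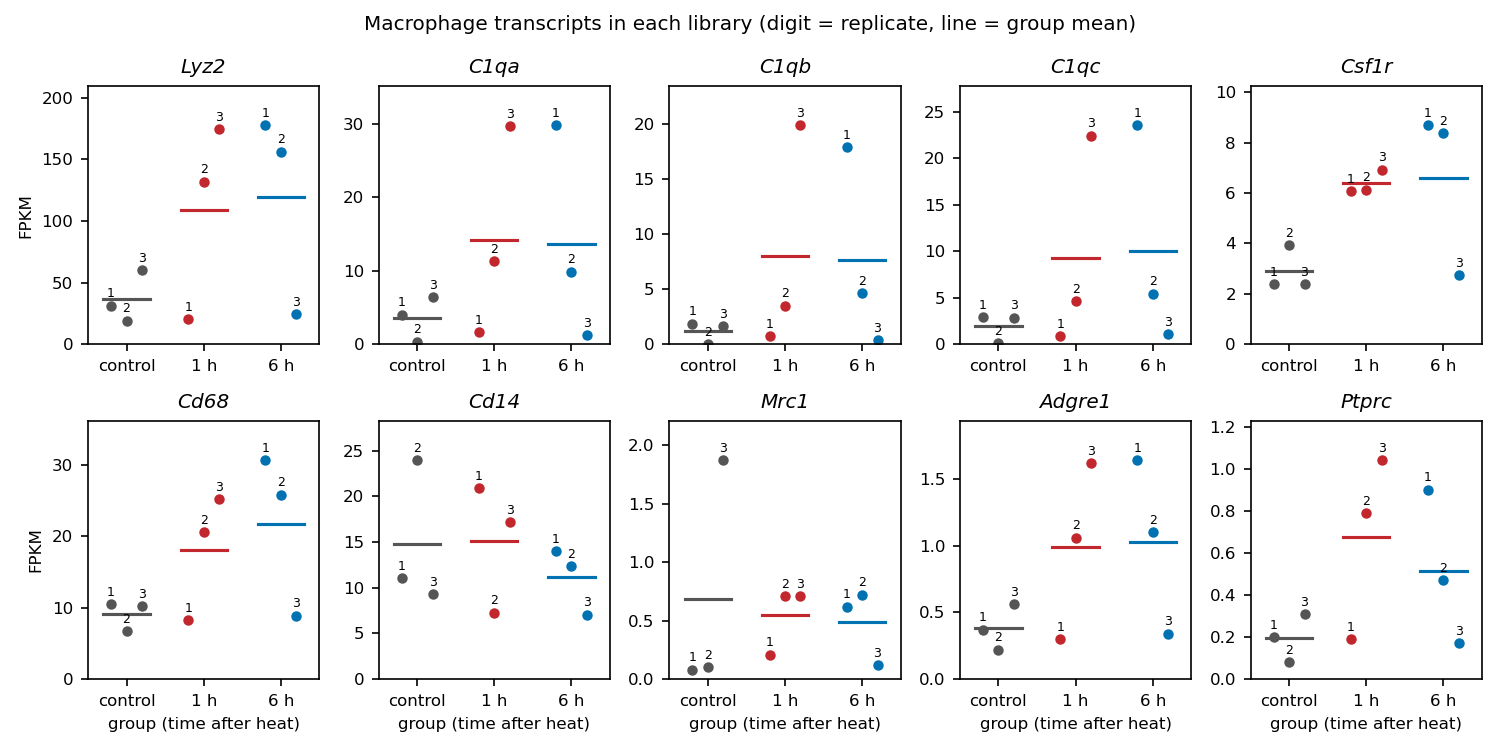
FPKM (vertical axes, each from 0) of the 10 members in the 9 libraries, grouped as control, 1 h and 6 h after heat; points are libraries, digits are replicate numbers and lines are group means. For most members replicates 2 and 3 at 1 h and replicates 1 and 2 at 6 h lie above the other 5 libraries, as with Lyz2 at 132 to 178 FPKM against 19.2 to 60.02 FPKM; Cd14 and Mrc1 do not share that order.

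Mean Lyz2 was 36.9 ± 21.0 FPKM in control, 109 ± 79.8 FPKM at 1 h and 119 ± 83.1 FPKM at 6 h (SD, n = 3). Its change did not pass the test at either time, and both heat groups overlapped control. On the log2(FPKM + 1) scale, on which all changes here are given, the difference was 1.21 (SE 0.92) at 1 h and 1.38 (SE 0.92) at 6 h against control. The adjusted p by limma was 0.59 and 0.88. The 1 h change was 0.64 without 1 h replicate 3 and 2.16 without 1 h replicate 1, and the 6 h change was 0.88 without 6 h replicate 1 and 2.29 without 6 h replicate 3.

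Lyz1, a close copy of Lyz2 that codes for lysozyme of the Paneth cell type, is its neighbour on chromosome 10. Lyz2 lies at chr10:117277541-117282272 and Lyz1 at chr10:117287795-117292868 (mm10, both on the minus strand). Lyz1 followed Lyz2 in every library, at 8.52% to 13.3% of the Lyz2 level. Its levels were 2.68, 1.75 and 6.96 FPKM in control, 1.88, 14.0 and 23.2 FPKM at 1 h, and 22.3, 19.9 and 2.07 FPKM at 6 h. The transcripts share 195 stretches of 50 bases, 15.4% of those in Lyz2 and 16.1% of those in Lyz1, so the division of reads between them is uncertain. The sequences just upstream of the starts are alike as well, with 152 of 250 bases identical at the same position. Both are shown because the levels of the pair kept within that range of ratios. They run 5′ to 3′ on the gene's strand and end at the base before the RefSeq start (GRCm38.p6, chr10:117282273-117282522 for Lyz2 and chr10:117292869-117293118 for Lyz1, minus strand). Capitals mark ACTTCC, the reverse complement of GGAAGT, a motif with the GGAA core that ETS factors such as the macrophage factor PU.1 bind.
Lyz2: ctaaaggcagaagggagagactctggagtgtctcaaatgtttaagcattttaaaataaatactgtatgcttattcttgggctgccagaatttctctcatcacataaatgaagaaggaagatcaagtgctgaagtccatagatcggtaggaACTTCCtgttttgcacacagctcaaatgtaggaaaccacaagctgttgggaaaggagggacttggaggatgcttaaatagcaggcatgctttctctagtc
Lyz1: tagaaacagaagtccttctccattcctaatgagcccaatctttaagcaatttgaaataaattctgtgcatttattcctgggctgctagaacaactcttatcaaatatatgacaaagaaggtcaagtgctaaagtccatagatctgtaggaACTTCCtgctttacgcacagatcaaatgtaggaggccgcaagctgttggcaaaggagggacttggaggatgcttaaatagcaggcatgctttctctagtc

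The C1q chains varied more between libraries than any other member. C1qa, C1qb and C1qc code for the 3 chains of C1q, which binds immune complexes and dying cells and starts the classical complement pathway. The genes lie together on the minus strand of chromosome 4 within 18700 bp, at chr4:136880145-136898844 (mm10), in the order C1qb, C1qc, C1qa. C1qa stood at 4.04, 0.34 and 6.37 FPKM in control, at 1.62, 11.3 and 29.6 FPKM at 1 h, and at 29.8, 9.89 and 1.24 FPKM at 6 h (replicates 1 to 3). C1qc gave 2.95, 0.10 and 2.86 FPKM in control, 0.90, 4.67 and 22.4 FPKM at 1 h, and 23.6, 5.43 and 1.11 FPKM at 6 h. C1qb gave 1.88, 0.00 and 1.64 FPKM in control, 0.75, 3.52 and 19.9 FPKM at 1 h, and 17.9, 4.65 and 0.35 FPKM at 6 h. For all 3 chains, 1 h replicate 3 and 6 h replicate 1 were the highest libraries and control replicate 2 the lowest.

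The low end rested on few reads. Control replicate 2 held an estimated 7 reads of C1qa, 2 of C1qc and 0 of C1qb, where C1qb is listed at 0. Replicate 3 at 1 h held an estimated 596, 439 and 392 reads of C1qa, C1qc and C1qb. The ratios between the chains varied: C1qa was 1.12 to 3.40 times C1qc, and C1qb was 0.315 to 0.887 times C1qc in the 8 libraries where C1qb is above 0. Across the 9 libraries the pairs of chains correlated with Pearson's r of 0.978 for C1qa and C1qc, 0.972 for C1qa and C1qb, and 0.992 for C1qb and C1qc. Spearman's rho was 0.950, 0.950 and 0.967 for these pairs in the same order, and r without the 2 libraries farthest from the median was 0.963, 0.958 and 0.974. The adjusted p, from an exact two-sided permutation test over all orderings of the libraries with adjustment over 28 pairs of members, was 0.00017 for each pair by r. By rho it was 0.00076, 0.00076 and 0.00051. Each chain had 1 h replicates 2 and 3 and 6 h replicates 1 and 2 above the other 5 libraries. The r and rho over all 9, and their adjusted p, partly reflect that split. So does r without 2 libraries, since libraries of both sets remain. C1qb also passed the filter on low values only through those 4 libraries.

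The upstream sequences of C1qb and C1qc are shown because these transcripts moved together most closely (RefSeq, GRCm38.p6, minus strand, chr4:136886201-136886450 and chr4:136892915-136893164). Capitals mark ACTTCC or GGAAGT and the second motif with a GGAA core, GAGGAA or its reverse complement TTCCTC. In C1qc the copies of the motifs overlap as ACTTCCTC.
C1qb: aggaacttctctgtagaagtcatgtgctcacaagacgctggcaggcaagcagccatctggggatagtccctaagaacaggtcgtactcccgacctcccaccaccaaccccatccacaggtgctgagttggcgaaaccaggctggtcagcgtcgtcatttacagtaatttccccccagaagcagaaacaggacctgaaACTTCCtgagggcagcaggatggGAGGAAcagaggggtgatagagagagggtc
C1qc: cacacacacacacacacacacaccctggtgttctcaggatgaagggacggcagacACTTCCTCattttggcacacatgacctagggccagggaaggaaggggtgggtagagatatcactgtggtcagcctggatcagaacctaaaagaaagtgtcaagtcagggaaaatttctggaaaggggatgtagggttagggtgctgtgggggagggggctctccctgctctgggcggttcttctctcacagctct

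Upstream sequences were found in the RefSeq table for 6 of the 10 members: Lyz2, C1qb, C1qc, Cd68, Mrc1 and Ptprc. Searched on both strands in the 250 bases before the start, GGAAGT was present in 5 of the 6 and in 19.7% of all 32851 promoters of that length. GAGGAA was present in 4 of the 6 and in 23.3% of all promoters. Each of the 6 held at least 1 of these motifs, as did 36.7% of all promoters. A match of 6 letters describes the sequence and is not a measured binding site.

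C1q was not a fixed share of Lyz2. The summed C1q level was 28.3%, 2.29% and 18.1% of the Lyz2 level in control, 16.1%, 14.7% and 41.2% at 1 h, and 40.1%, 12.8% and 11.1% at 6 h (replicates 1 to 3). The 4 libraries with the most Lyz2 thus split into pairs that cut across the times. Replicate 3 at 1 h and replicate 1 at 6 h had summed C1q of 71.99 and 71.3 FPKM, while replicate 2 at 1 h and replicate 2 at 6 h had 19.5 and 19.97 FPKM. The myoid contractile genes did not divide these libraries alike. Myh11, the smooth muscle myosin heavy chain, stood at 41.9 and 35.9 FPKM in the pair with more C1q and at 10.8 and 8.41 FPKM in the pair with less. Acta2, smooth muscle actin, stood at 1164 and 992 FPKM in the pair with more C1q and at 1266 and 1005 FPKM in the pair with less. Myl9 and Tpm2 had their lowest levels of all 9 libraries, 555 and 397 FPKM, in 6 h replicate 1, which is of the pair with more. The part of cell makeup in the C1q levels was not tested.

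**Figure D2:**
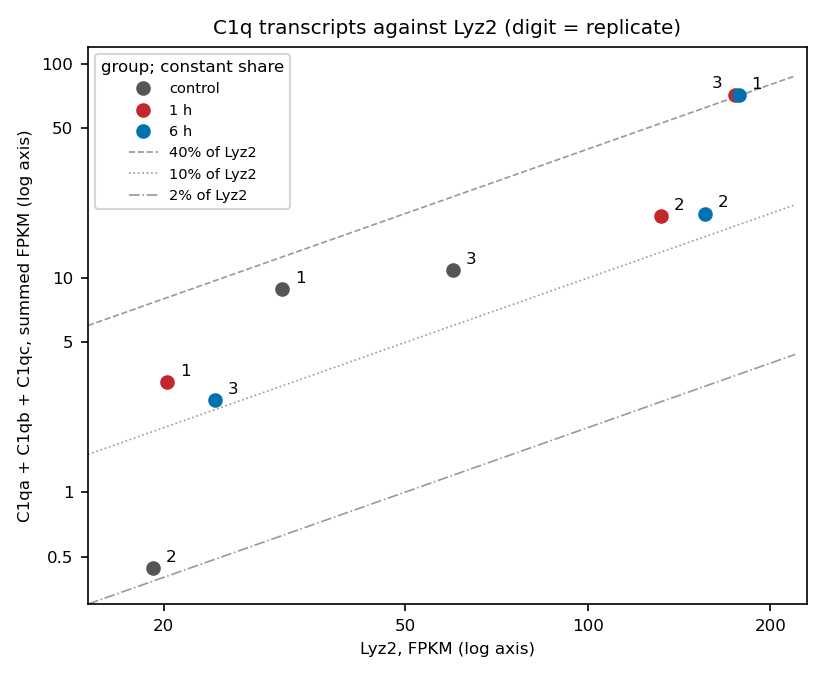
Summed FPKM of C1qa, C1qb and C1qc (vertical) against FPKM of Lyz2 (horizontal) in the 9 libraries, both on log axes; colours are groups, digits are replicate numbers and grey lines mark constant shares. Replicate 3 at 1 h and replicate 1 at 6 h coincide near 71.99 and 71.3 FPKM of C1q, and control replicate 2 lies lowest, where C1q is 2.29% of Lyz2.

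None of the C1q chains passed the test. At 1 h against control the log2 change was 1.44 (SE 1.11) for C1qa, 1.48 (SE 1.05) for C1qb and 1.30 (SE 1.04) for C1qc, with adjusted p of 0.60, 0.58 and 0.61 by limma. The changes at 6 h were 1.30 (SE 1.11), 1.42 (SE 1.05) and 1.44 (SE 1.04), with adjusted p of 0.88 for each. The heat groups overlapped control for all 3 chains at both times. The 1 h change of C1qa was 0.62 without 1 h replicate 3 and 2.40 without 1 h replicate 1.

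Cd68, a membrane glycoprotein of lysosomes, had the same 4 libraries highest as Lyz2, within a smaller range. Its levels were 10.5, 6.71 and 10.3 FPKM in control, 8.29, 20.6 and 25.3 FPKM at 1 h, and 30.7, 25.9 and 8.87 FPKM at 6 h. Those 4 libraries held 20.6 to 30.7 FPKM, and the other 5 held 6.71 to 10.5 FPKM. The log2 change was 0.80 (SE 0.49, adjusted p = 0.53 by limma) at 1 h and 1.02 (SE 0.49, adjusted p = 0.88 by limma) at 6 h against control. Cd68 was 14.5% to 40.9% of Lyz2, with the larger shares where Lyz2 was low.

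The lysosomal hydrolases and membrane proteins as a list did not follow Cd68. All 16 passed the filter on low values, 0 were called at either time, and 2 of them, Ctsb and Ctsz, were highest in the 4 libraries named. Their summed level was 3057 to 4823 FPKM in control, 3536 to 4264 FPKM at 1 h and 3388 to 5329 FPKM at 6 h, led by Ctsd and Psap, which most cells express.

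Adgre1, which codes for the F4/80 antigen, was low but ordered like Lyz2. It stood at 0.37, 0.22 and 0.56 FPKM in control, at 0.30, 1.06 and 1.62 FPKM at 1 h, and at 1.64, 1.10 and 0.34 FPKM at 6 h. The same 4 libraries exceeded 1 FPKM and the other 5 did not. An estimated 14 to 101 reads lay behind each value. The log2 change was 0.48 (SE 0.31, adjusted p = 0.55 by limma) at 1 h and 0.50 (SE 0.31, adjusted p = 0.88 by limma) at 6 h against control. The pseudocount of 1 compresses changes at such levels.

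Ptprc (CD45, the phosphatase on all leukocytes) and Mrc1 (CD206, the mannose receptor) did not reach 1 FPKM in 3 libraries and were not tested in the main fit. Ptprc stood at 0.20, 0.08 and 0.31 FPKM in control, at 0.19, 0.79 and 1.04 FPKM at 1 h, and at 0.90, 0.47 and 0.17 FPKM at 6 h, with the same 4 libraries highest. Mrc1 stood at 0.08, 0.10 and 1.87 FPKM in control, at 0.21, 0.71 and 0.71 FPKM at 1 h, and at 0.62, 0.72 and 0.12 FPKM at 6 h. Its highest level was in control replicate 3, the library with 2700 FPKM of Clu, and without it the same 4 libraries led. In a fit without the filter, the log2 change against control was 0.45 at 1 h and 0.31 at 6 h for Ptprc, and 0.02 and -0.04 for Mrc1. Their adjusted p by limma lay between 0.58 and 1.

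Csf1r, the receptor for CSF1 and IL-34, was the member whose 1 h libraries agreed best. It stood at 2.38, 3.94 and 2.38 FPKM in control, at 6.08, 6.13 and 6.93 FPKM at 1 h, and at 8.68, 8.37 and 2.75 FPKM at 6 h. All 1 h libraries lay above all controls, while 6 h replicate 3 lay among the controls. Over all genes tested, 4.49% were higher in every 1 h library than in every control. The mean was 6.38 ± 0.477 FPKM at 1 h against 2.90 ± 0.901 FPKM in control (SD, n = 3 each). Its log2 change was 0.94 (SE 0.34), with an unadjusted p of 0.022 and an adjusted p of 0.42 by limma, so Csf1r was not called. Over all genes, 2.76% were higher at an unadjusted p below 0.05. At 6 h against control the log2 change was 0.86 (SE 0.34, adjusted p = 0.88 by limma). The smallest adjusted p of any member under any alternative was also that of Csf1r at 1 h, 0.12 with the 6 h libraries left out of the fit.

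Replicate 1 at 1 h set Csf1r apart from Lyz2. In that library Csf1r stood at 6.08 FPKM, close to the other 1 h libraries, while Lyz2 was at 20.3 FPKM, within the control range. Csf1r was 30.0% of Lyz2 there and 3.96% in 1 h replicate 3. Of 11460 genes tested, 138 (1.2%) had the same 5 libraries highest as Csf1r. They included 5 of the 10 genes listed for fibroblasts and stroma (Dcn, Lum, Col1a2, Col3a1 and Tcf21), 3 of the 12 tested complement genes (C2, C4b and Serping1) and 2 of the 25 other tested macrophage genes (Ms4a7 and Mpeg1). Col3a1, a fibrillar collagen chain, stood at 308, 180 and 282 FPKM in control, at 811, 601 and 685 FPKM at 1 h, and at 442, 1050 and 199.7 FPKM at 6 h. C4b, the complement component cleaved by C1s after C1q has bound, stood at 4.71, 3.27 and 2.54 FPKM in control, at 41.5, 29.0 and 28.3 FPKM at 1 h, and at 22.3, 57.9 and 2.29 FPKM at 6 h. The log2 change of C4b at 1 h against control was 2.92 (SE 0.83, adjusted p = 0.32 by limma). The part of stromal cells in the Csf1r level was not tested.

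Cd14, the co-receptor that hands lipopolysaccharide to TLR4 and MD-2, ranked the libraries unlike the other 7 tested members. It stood at 11.0, 23.9 and 9.28 FPKM in control, at 20.9, 7.27 and 17.2 FPKM at 1 h, and at 14.0, 12.3 and 7.03 FPKM at 6 h. The highest libraries, control replicate 2 and 1 h replicate 1, were the lowest and the next to lowest for Lyz2. Cd14 was 125% of Lyz2 in control replicate 2 and 5.51% in 1 h replicate 2. Its log2 change was 0.03 (SE 0.44, adjusted p = 0.98 by limma) at 1 h and -0.31 (SE 0.44, adjusted p = 0.91 by limma) at 6 h against control, and without control replicate 2 it was 0.42 and 0.08.

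Most chemoattractant and growth factor genes that were tested shared the pair of libraries highest for Cd14. Of 11460 genes tested, 184 (1.61%) had control replicate 2 and 1 h replicate 1 highest, and 5 of these were among the 6 tested genes of that list (Csf1, Ccl2, Ccl7, Cxcl12 and Cxcl1). By Pearson's r over the 9 libraries the gene most like Cd14 was none of them but Adgra2 (r = 0.939, a description). Ccl2, which attracts monocytes, stood at 92.0, 1017 and 79.5 FPKM in control, at 633, 218 and 176 FPKM at 1 h, and at 41.4, 82.4 and 93.7 FPKM at 6 h. Csf1, the ligand of CSF1R, was abundant throughout at 275 to 699 FPKM. The list's other tested gene, Cx3cl1, was lowest in those 2 libraries, at 2.52 FPKM in control replicate 2 and 2.2 FPKM in 1 h replicate 1. Among 13 tested genes of the CD14 and TLR4 pathway, Tlr2 and Nfkb1 shared the pair of highest libraries. Tlr4 itself lay between 1.95 and 4.08 FPKM and Ly96, which codes for MD-2, between 7.89 and 12.8 FPKM. None of the tested genes of either list was called.

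**Figure D3:**
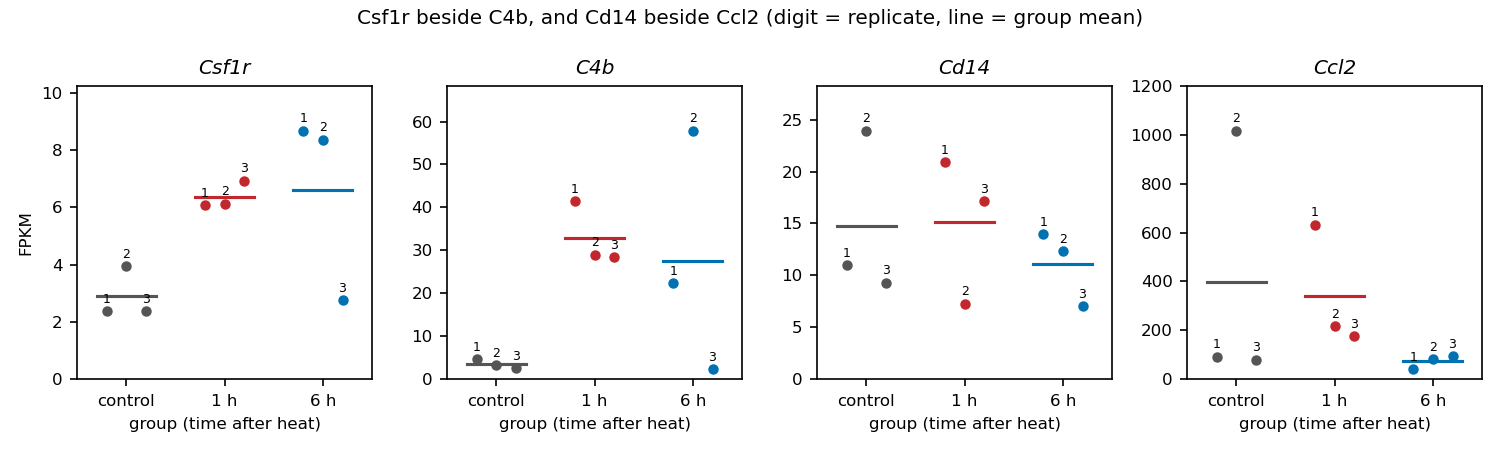
FPKM (vertical axes, each from 0) of Csf1r, C4b, Cd14 and Ccl2 in the 9 libraries, grouped as control, 1 h and 6 h after heat; points are libraries, digits are replicate numbers and lines are group means. Csf1r and C4b are higher in all 1 h libraries than in control, and Cd14 and Ccl2 are highest in control replicate 2 (23.9 and 1017 FPKM) and 1 h replicate 1 (20.9 and 633 FPKM).

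Read together, 7 of the 8 members that passed the filter (all but Cd14) had the same 4 libraries highest, 1 h replicates 2 and 3 and 6 h replicates 1 and 2. So did 116 of 11460 genes tested (1.01%). The libraries were singled out from the Lyz2 values, so this count describes the order and tests nothing. Of these members, Adgre1 and C1qb passed the filter only through these 4 libraries, so the filter favoured that order for them. Of the members below the filter, Ptprc had that order and Mrc1 did not. Summed over the 10 members, the level was 64.8, 54.6 and 95.5 FPKM in control, 59.5, 188 and 300 FPKM at 1 h, and 305, 225 and 46.3 FPKM at 6 h. The highest sum was 6.60 times the lowest, and both were at 6 h.

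Of 28 pairs among the 8 members that passed the filter, 16 correlated across the 9 libraries with an adjusted p below 0.05 by Pearson's r in the exact permutation test, and 15 by Spearman's rho. All 15 pairs among Lyz2, the C1q chains, Cd68 and Adgre1 were among the 16. For Lyz2, Cd68 and Adgre1 the libraries form separate sets of 4 and 5, so no r over all 9 is given for their pairs. Neither set has the 6 libraries that a correlation within it would need. The C1q chains also had these 4 libraries above the other 5, as with C1qa at 9.89 to 29.8 FPKM against 0.34 to 6.37 FPKM. The counts of pairs rest on r or rho over all 9 libraries, so they partly reflect that split. Adgre1 and C1qb passed the filter only through the 4 high libraries, so the filter favoured that order for their pairs. Each library was also taken as its deviation from its group mean, with libraries permuted within groups. In that permutation test 13 of the 28 pairs had an adjusted p below 0.05. Each heat group held libraries of both sets, so the deviations still carry the split and this count is no check on it. The 7 pairs with Cd14 had r of -0.20 to 0.34 and rho of -0.17 to 0.33, with adjusted p of 0.45 to 0.96 by r and 0.49 to 1 by rho in the exact permutation test. Without the 2 libraries farthest from the median these r ran from -0.62 to 0.20. Csf1r with Cd68 was the 16th pair (adjusted p = 0.049 by r and 0.070 by rho, exact permutation test).

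**Figure D4:**
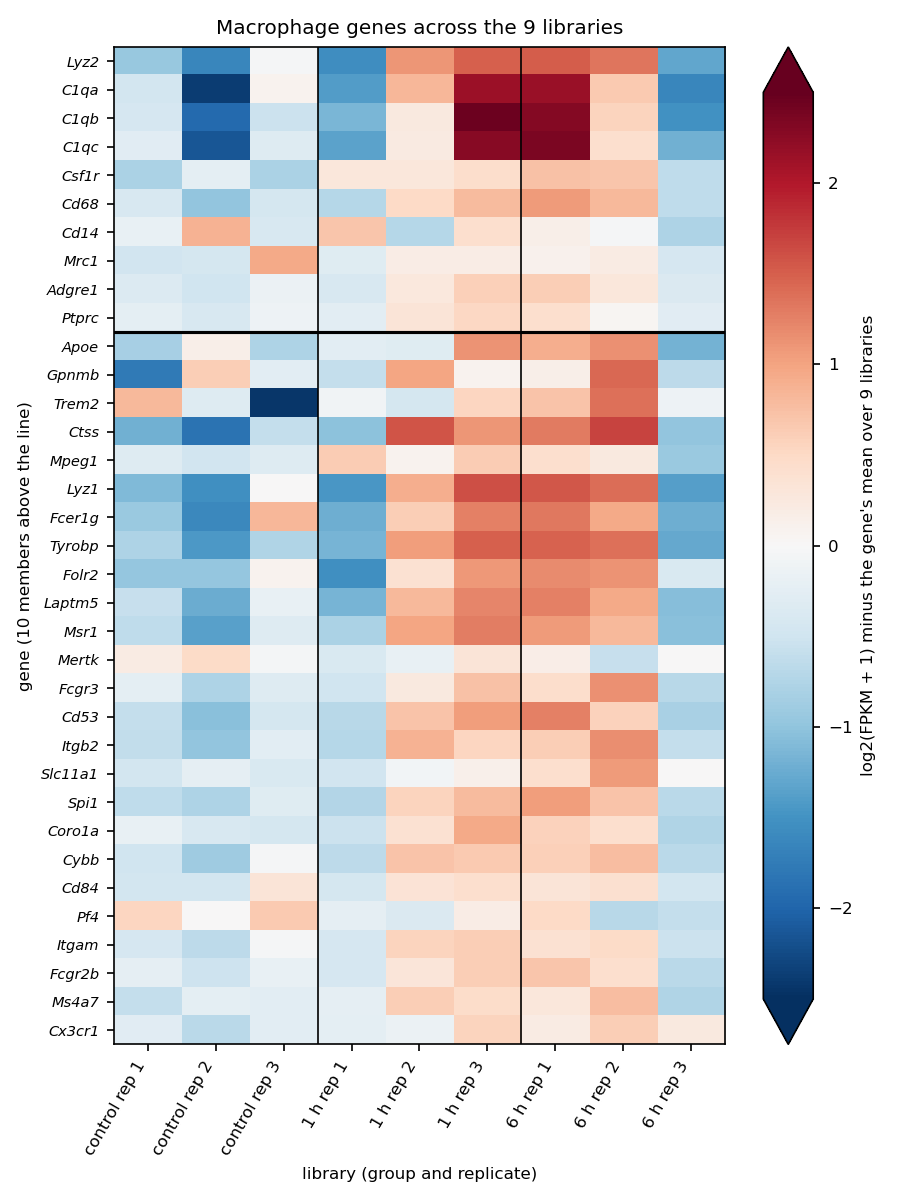
log2(FPKM + 1) minus the gene's mean over the 9 libraries (colour) for the 10 members, above the line, and the 25 other macrophage genes that passed the filter, below it in order of mean level; columns are libraries, with lines between control, 1 h and 6 h. Red columns for 1 h replicates 2 and 3 and 6 h replicates 1 and 2 recur in 7 of the 8 tested members and 16 of the 25 other genes.

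Most of the other tested macrophage genes had the same 4 libraries highest. Of 36 listed, 25 passed the filter, and 16 of these 25 did. Spi1, Cd53 and Fcgr2b, which are among the 16, stayed below 1 FPKM in the other 5 libraries. Genes like these passed the filter only through the 4 libraries, so the filter favoured that order and the count tests nothing. Tyrobp, the signalling adaptor DAP12, stood at 3.13, 1.59 and 3.15 FPKM in control, at 2.15, 13.5 and 18.8 FPKM at 1 h, and at 18.6, 17.3 and 1.89 FPKM at 6 h. Spi1, which codes for PU.1, held 2.33 to 3.70 FPKM in the 4 libraries and 0.32 to 0.84 FPKM in the other 5. The most abundant genes of the list departed from that order. Trem2, a lipid receptor, was at 84.7 FPKM in control replicate 1 and 8.08 FPKM in control replicate 3, and Apoe, an apolipoprotein made by many cell types, was at 164 FPKM in control replicate 2. The list's median log2 change was 0.65 at 1 h and 0.78 at 6 h against control, beside -0.17 and -0.06 over all genes tested, with 0 of 25 called at either time.

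Markers of particular macrophage kinds ranged from absent to abundant. Timd4 and Adgre4 reached at most 0.02 FPKM, and Cd163, the haemoglobin scavenger receptor, at most 0.30 FPKM. Lyve1 reached 1.70 FPKM and Cx3cr1 1.61 FPKM, and Folr2, a folate receptor, ranged from 0.84 to 11.0 FPKM. Trem2 and Gpnmb reached 126 and 167 FPKM. Pearson's r with the mean of the tested members was 0.40 for Trem2, 0.39 for Gpnmb and 0.05 for Cd163. It was 0.88 for Folr2, 0.78 for Lyve1 and 0.69 for Cx3cr1 (a description). Folr2 had the same 4 libraries highest as Lyz2, and Trem2 and Gpnmb did not. The cell source of Trem2 and Gpnmb was not tested.

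The MHC class II genes were uneven as well. Of 8 listed, 2 passed the filter and 0 were called. These were H2-DMb1 (5.70 to 11.7 FPKM) and H2-DMa (3.91 to 7.77 FPKM), which code for the chains that load peptides. Cd74, the invariant chain, reached at most 0.39 FPKM, the regulator Ciita 0.04 FPKM and H2-Aa 0.70 FPKM, its highest value in control replicate 3. The list summed to 11.5 to 16.4 FPKM in control, 11.6 to 14.05 FPKM at 1 h and 15.75 to 18.8 FPKM at 6 h.

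Among other leukocyte genes, 3 of the 9 listed for monocytes and neutrophils with values passed the filter and 0 were called. Cxcr2 ranged from 2.70 to 56.1 FPKM, Camp from 0.64 to 5.85 FPKM and Ly6c2 from 0.39 to 4.90 FPKM, while Ccr2 of monocytes reached at most 0.04 FPKM. The list summed to 6.17 to 11.0 FPKM in control, 8.07 to 19.2 FPKM at 1 h and 7.81 to 64.3 FPKM at 6 h. Of 11 lymphocyte genes with values, 0 passed the filter (summed level 0.77 to 1.54 FPKM in control, 1.10 to 2.07 FPKM at 1 h and 1.15 to 1.76 FPKM at 6 h). Lyz1, Tyrobp, Spi1, C4b, Lyve1, Cx3cr1, Folr2, Adgra2, Myh11 beside C1q and the genes named for sharing an order of libraries were picked after their values were seen.

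The tested genes whose values were most like the mean of the 8 members, by Pearson's r of log2(FPKM + 1) over the 9 libraries, were Lmo2 (r = 0.988), Ncf1 (0.987), Cyth4 (0.985), Fcgr2b (0.985), Cd53 (0.980) and Pld4 (0.977). These r describe 9 libraries of which 4 are high for most members, and they are given with no test. Cd53 had the largest range of the 6, 0.28 to 5.28 FPKM.

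At 1 h against control, 0 of the 8 members passed an adjusted p of 0.05 by limma, where 18 of 11460 genes (0.157%) were called higher and 0 lower. Csf1r was the 1 member with an unadjusted p below 0.05, beside 2.76% of all genes higher and 8.05% lower by that measure. It was also the 1 member whose groups did not overlap, beside 4.49% of all genes higher and 21.4% lower.

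At 6 h against control, 0 of the 8 members and 0 of 11460 genes were called by limma. Csf1r again was higher with an unadjusted p below 0.05, as were 1.27% of all genes, while 3.35% were lower. The groups overlapped for all 8 members, and over all genes 1.89% were separate and higher and 5.32% separate and lower. For 6 h against 1 h, 0 of the 8 members were called by limma, while 32 genes (0.279%) were lower and 0 higher. None of the members had an unadjusted p below 0.05 there, beside 8.45% of all genes higher and 3.19% lower. None had separate groups, beside 15.2% higher and 4.97% lower.

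The median log2 change over the 8 tested members was 1.08 at 1 h and 1.16 at 6 h against control and -0.02 at 6 h against 1 h. Over all genes tested these medians were -0.17, -0.06 and 0.09. With median-of-ratios scaling the medians of all genes were -0.01 in each comparison, and the 7 members other than Cd14 stayed above 0 against control. The comparisons with control share the same 3 control libraries.

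**Figure D5:**
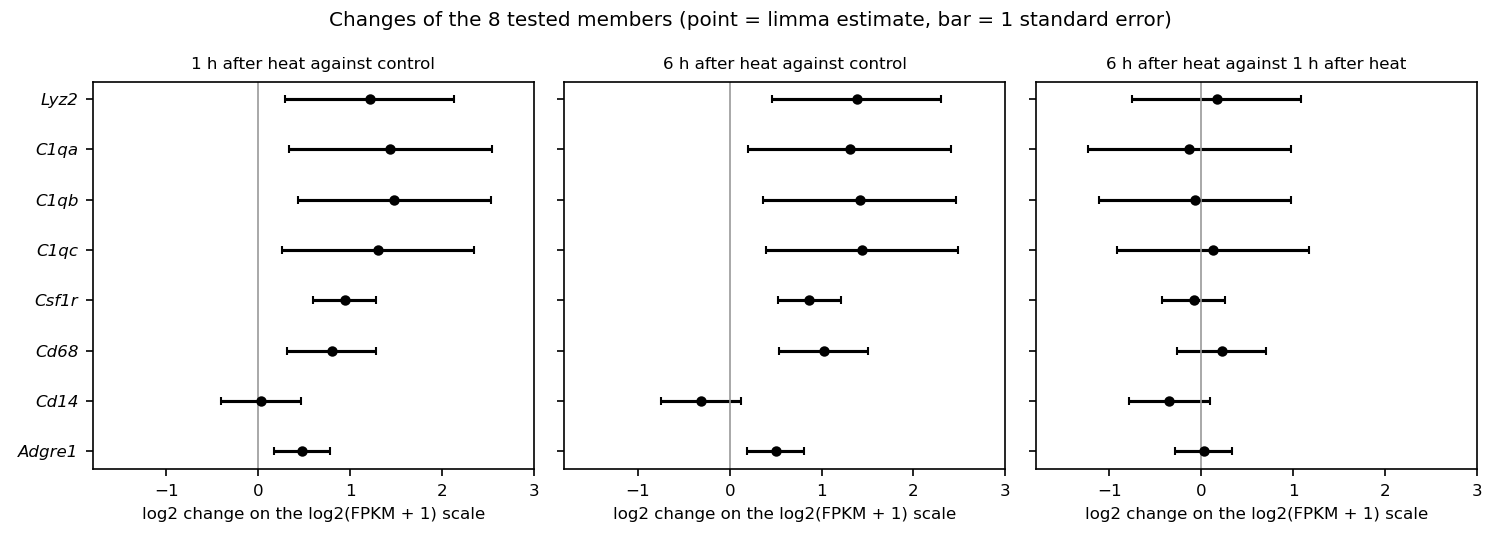
Change of the 8 tested members on the log2(FPKM + 1) scale (horizontal) in the 3 comparisons; points are limma estimates and bars are 1 standard error to each side. Points against control lie above 0 for every member at both times except Cd14 at 6 h (-0.31), the bars of Lyz2 and the C1q chains are the widest, and all bars at 6 h against 1 h cross 0.

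Between 6 h and 1 h the members' changes were small against their errors, from -0.34 (SE 0.44) for Cd14 to 0.22 (SE 0.49) for Cd68, with adjusted p of 0.80 to 0.99 by limma. Lyz2 changed by 0.17 (SE 0.92), and C1qa by -0.13 (SE 1.11). Each heat group held 1 library with low values of most members, and the direction turned for 7 of the 8 members when 1 library or another was left out.

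Without control replicate 3 and 6 h replicate 2, the change at 1 h against control was 1.63 for Lyz2, 1.94 for C1qa, 0.89 for Cd68 and 0.85 for Csf1r. The changes at 6 h were 1.39, 1.68, 0.91 and 0.56 for the same genes. The adjusted p by limma of these members stayed between 0.29 and 0.77. The summed level of the Sertoli list was 3206 FPKM in control replicate 3 and 310 to 626 FPKM in the other 8 libraries.

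The authors' deposited table gives another reading of the same levels. Taking changes of 2-fold or more with q-values no higher than 0.001, the authors' deposited table holds 7 members as higher at 1 h than in control (Lyz2, C1qa, C1qb, C1qc, Csf1r, Adgre1 and Ptprc) and none as lower, beside 3.51% and 4.33% of all genes with a value. At 6 h the authors' deposited table holds 8 members as higher, Cd68 being added, and none as lower, beside 3.01% and 3.44% of all genes. For 6 h against 1 h the authors' deposited table holds 0 members as changed by that measure, beside 2.48% of genes higher and 2.02% lower. The authors' deposited table gives log2 changes at 1 h of 1.56 for Lyz2, 2.24 for C1qc, 1.13 for Csf1r and 0.98 for Cd68, with q-values of 0, 1.8e-67, 2.2e-65 and 1.3e-46. The table's log2 changes match the ratios of the group means and carry no spread between replicates, such as that of Lyz2 at 1 h (20.3, 132 and 175 FPKM).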

How the data were processed

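RNA of 9 libraries was read from 1 deposited table. Its values are FPKM made by the authors, per the file headers, written to 2 decimals. Tools listed by the submitters' processing notes are RSEM 1.2.12, HISAT2 2.0.4 and Bowtie2 2.2.5, with the build mm10 and no step assigned. The sources used here do not give the kit, its strand setting or how shared reads were divided. Columns of log2 fold changes between group means, p-values and q-values are also the authors', from DEGseq per the file headers.

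Depth was estimated from low values as multiples of 1 read over transcripts of 400 to 1200 bp. Between 89.1% and 92.2% of a library's low values came within 0.2 of a whole number of reads, and 40% would be expected by chance. No count test was made, since reads could not be recovered for every gene.

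Genes reaching 1 FPKM in 3 or more of 9 libraries (11460) were tested with limma 3.58.1 (R 4.3.3) on log2(FPKM + 1), two-sided, with a variance trend, 3 group means, no block, 6 residual degrees of freedom and Benjamini-Hochberg adjustment. The design foresaw RPKM or counts; FPKM take the same log-scale test. It was tested on simulated data. Correlations, depth and motifs were computed in Python 3.11.15. Control and 1 h libraries of the same replicate number deviated together (r of 0.19, 0.15 and 0.26). So did some of different numbers, with r of 0.17 for control replicate 2 and 1 h replicate 1. Replicate 3 at 1 h and replicate 1 at 6 h reached 0.35. Libraries of the same number had r of -0.27, -0.10 and -0.35 between 1 h and 6 h (replicates 1 to 3). Between control and 6 h they had r of -0.18, 0.04 and 0.01. Whether a number marks a shared source is thus not known, and the main fit used no pairing. A fit with the number as a block is among the alternatives.

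The members and 17 other gene lists were chosen with earlier results of these data known. From these lists 2 genes are not reported here. Genes named were the members, up to 4 of the highest genes of a list, called genes, markers near 0 and the 6 genes most like the members; exceptions are stated. Coordinates are mm10 (GENCODE M21) or GRCm38.p6 (RefSeq promoters), counted from 1. Overlapping genes are annotated for Csf1r (Mir6983), Mrc1 (Mir511) and Ptprc (A130071D04Rik), and without a stated strand setting their reads are not separable. Alternatives changed the pseudocount, filter, scaling, variance trend, block and libraries used.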

Additional observations from a re-analysis of the deposited data

How the results depend on the processing

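The 8 tested members went through 444 alternatives over the 3 comparisons, and 0 passed the threshold. The smallest adjusted p was 0.12, for Csf1r at 1 h with the groups compared fitted alone. Against control, Lyz2, the C1q chains, Csf1r, Cd68 and Adgre1 kept a positive change in 258 of 258 alternatives. The alternatives reuse the same 9 libraries, so these counts are not independent checks. The sign turned in 25, of which 19 were at 6 h against 1 h and 6 were Cd14 against control. The causes were not tested.

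Against control, the 1 h change was lowest without 1 h replicate 3 and highest without 1 h replicate 1 for C1qb (0.52 and 2.31), C1qc (0.36 and 2.17), Cd68 (0.50 and 1.25) and Adgre1 (0.25 and 0.76). The 6 h change was lowest without 6 h replicate 1 and highest without 6 h replicate 3 for C1qa (0.43 and 2.32), C1qb (0.49 and 2.40), C1qc (0.53 and 2.30), Cd68 (0.70 and 1.55), Adgre1 (0.29 and 0.77) and Csf1r (0.63 and 1.31). With 1 library left out, Cd14 ranged from -0.25 to 0.46 at 1 h and from -0.56 to 0.076 at 6 h against control. For 6 h against 1 h the ranges were -0.78 to 1.08 for Lyz2, -1.09 to 0.88 for C1qa, -0.99 to 0.91 for C1qb, -0.78 to 1.08 for C1qc, -0.31 to 0.37 for Csf1r, -0.23 to 0.75 for Cd68 and -0.25 to 0.30 for Adgre1. Adgre1 was at -0.025 there with median-of-ratios scaling. Without control replicate 3 and 6 h replicate 2 together, Cd14 was at -0.22 at 1 h against control, and Lyz2 and Adgre1 at -0.24 and -0.026 at 6 h against 1 h.

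Over all genes, 18 were called at 1 h against control, against 10 with no filter, 31 with quantile normalization, 47 with the groups compared alone and 8 to 52 with 1 library left out. Against control 0 were called at 6 h, and 0 to 25 with 1 library left out, the 25 being without 6 h replicate 1. At 6 h against 1 h 32 were called, 55 with quantile normalization and 8 to 104 with 1 library left out. With the replicate number as a block, 15, 0 and 23 genes were called in these comparisons and no member changed its call; Csf1r at 1 h had a log2 change of 0.94 and an adjusted p of 0.50. The count of correlated pairs was 16 of 28, and 13 to 18 under the alternatives. Filtering for at least 1 FPKM in all libraries left no value for the C1q chains and Adgre1. Depth limits Mrc1, Ptprc, Adgre1 and the C1q chains, whose lowest values rest on an estimated 0 to 14 reads.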

Other observations

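The deposited table also held transcripts whose order matched single members, found after their values were seen and given with no test. Col15a1, a basement membrane collagen, was among the 5 genes most like C1qc over the 9 libraries (Pearson's r = 0.968 on log2(FPKM + 1), a description). It stood at 59.05, 26.8 and 67.4 FPKM in control, at 30.7, 57.02 and 137 FPKM at 1 h, and at 111, 66.5 and 37.4 FPKM at 6 h (replicates 1 to 3). Like C1qc it was highest in 1 h replicate 3 and 6 h replicate 1 and lowest in control replicate 2. Slc15a3, a peptide transporter of lysosomes, was the gene most like Csf1r (r = 0.976), with 0.64 to 3.03 FPKM.

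Cxcr2, a chemokine receptor on the list of monocyte and neutrophil genes, stood at 56.1 and 38.7 FPKM in 6 h replicates 2 and 3 and at 2.70 FPKM in 6 h replicate 1, against 3.50 to 5.14 FPKM in control. Of the neutrophil genes on that list, Camp stood at 2.32 and 0.64 FPKM in 6 h replicates 2 and 3, and S100a8 and Ly6g reached at most 0.30 and 0.37 FPKM over all 9 libraries. Il34, the other ligand of CSF1R, reached 4.94 FPKM in control replicate 3 and at most 1.15 FPKM in the other 8 libraries.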
